A study of Brassica napus with 8 samples.

Results

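The transcriptional response of *MINELESS* seedlings of *Brassica napus* to 24 h of feeding by larvae of the cabbage moth *Mamestra brassicae* was measured on 4 of the 8 two-colour arrays of the series, 1 for each biological replica. All probes with a log2 ratio on 3 or 4 of these 4 arrays were included, whatever their coverage in wild-type, which gave 1989 of the 34992 probes on the array. The arrays carried oligonucleotides from *Arabidopsis*, so the RNA of *B. napus* was hybridized across species. *MINELESS* plants express barnase, an RNase, from a myrosinase promoter specific to myrosin cells, which kills these cells while the seed develops. The sources used here do not say whether the seedlings came from 1 transgenic line. Controls and challenged seedlings of the 4 arrays were all *MINELESS*, so the loss of myrosin cells was shared by both sides of every ratio. Seedlings were 6-7 days old and the larvae 10 days old. Controls were caged in the same way without insects. Each replica pooled above-ground tissue from 4 control pots or 6 challenged pots with 4 seedlings in each. The other 4 arrays held challenged and control wild-type seedlings of the same age. Larvae had been reared on seedlings of the genotype on which they were tested, so the food of the larva and the genotype of the seedling cannot be told apart between genotypes. In the study's separate no-choice assays, larvae ate less of *MINELESS* than of wild-type seedlings. The paper does not give the amount eaten from the seedlings on the arrays, so amount of damage and genotype cannot be told apart either.

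Myrosin cells store myrosinase, the enzyme that splits glucosinolates into the pungent products of the mustard oil defence of the Brassicaceae when tissue is damaged. Chewing insects also switch on new transcription in the plant, in large part through the hormone jasmonic acid, which induces further defence genes and the synthesis of indole glucosinolates from tryptophan. A plant without myrosin cells can still perceive wounding, and the comparison of challenged with control *MINELESS* seedlings asks which transcripts it changes. The files and tables used here do not pair the identifiers of the probes with genes, so no gene or pathway is named. The labelled genotype could not be checked against myrosinase transcripts for the same reason.

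The values were log2 ratios, in which 1 unit is a doubling. They were likely challenged over control. The table itself does not state the direction, but the study's design and methods compare challenged with control seedlings. Replicas 1 and 2 carried challenged RNA in Cy5, and replicas 3 and 4 carried it in Cy3. In the latter pair a sample description disagrees with the names of the channels, and the channel names were followed. The *MINELESS* arrays of opposite dye orientation correlated positively, as they do when their ratios share 1 direction. Each ratio compares whole tissue, in which fewer cells of a type and less RNA per cell cannot be told apart. The number of arrays limits the precision.

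The 4 *MINELESS* arrays did not hold the same probes. Replicas 1 and 4 held 4669 and 4690 values, and replicas 2 and 3 held 1781 and 1662. Of the 1989 probes tested, 1231 had a value on all 4 arrays and 758 on 3. A further 2802 probes had values on 2 arrays only and were not tested. Over the 1231 complete probes the ratios had SDs of 0.511, 0.595, 0.545 and 0.573 on replicas 1 to 4, and Pearson's r between arrays ran from 0.618 for replicas 3 and 4 to 0.772 for replicas 2 and 3. These correlations are across probes, which are not independent replicates, and both arrays of a pair share the probe set. Array medians over all values lay between -0.02 and 0.02. Among the complete probes, 61, 70, 58 and 66 exceeded a log2 ratio of 1 on replicas 1 to 4, and 6, 20, 9 and 9 lay below -1. The number of strong increases was thus close on the 4 arrays, and replica 2 held the most strong decreases.

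After *M. brassicae* feeding, 213 of the 1989 probes (10.7%) changed in *MINELESS* seedlings by more than 0.5 on the log2 scale with an adjusted *P* under 0.05 (limma with a dye effect for each probe, adjusted by Benjamini-Hochberg). Challenged seedlings had higher levels for 166 of them (8.35%) and lower levels for 47 (2.36%). The median log2 ratio was 1.00 among the higher probes, a fold of 2.01, and -0.72 among the lower ones, a fold of 1.65. Over all probes tested the median was -0.02 and 47.7% of estimates were positive. Large changes were mostly increases. Beyond a log2 ratio of 1 there were 85 higher and 4 lower probes, and beyond 1.5 there were 42 and 1. The 19 higher probes beyond 2 were accompanied by 1 lower probe. Beyond 2.5 there were 9 higher probes and 0 lower.

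**Figure D1:**
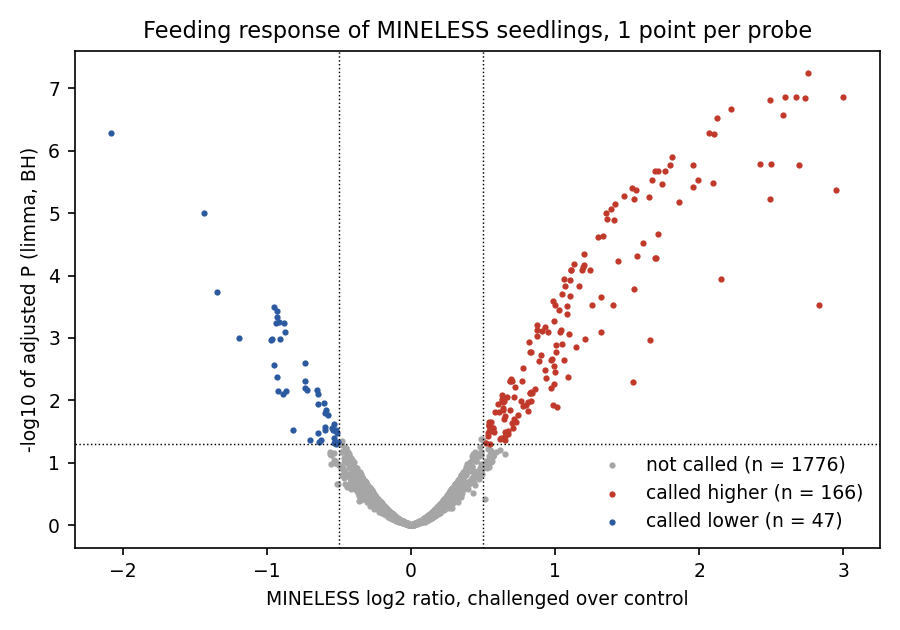
Log2 ratio of each of the 1989 probes in *MINELESS* (challenged over control, x axis) against the -log10 of its adjusted *P* from limma (y axis), with called probes in colour. The 166 higher probes reach 3.00, and the 47 lower probes lie closer to 0 apart from 1 at -2.08.

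A further 33 probes lay beyond 0.5 without passing the adjusted *P*, 21 higher and 12 lower. Their log2 ratios reached 0.65 in size and their adjusted *P* ran from 0.0604 to 0.383 (limma). Of the 33, 25 had values on only 3 arrays. Another 5 probes passed the adjusted *P* but stayed within 0.5. The median standard error was 0.149 for probes with 4 values and 0.182 for probes with 3. The smallest change called was 0.51. Between arrays the median SD was 0.317 for called higher probes, 0.294 for called lower probes and 0.245 for probes not called.

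The called probes mostly kept their sign from array to array. Among the higher probes 164 of 166 were positive on every *MINELESS* array with a value, and the 47 lower probes were negative on every such array. The same held for 741 of the 1989 probes tested (37.3%), and since the calls rest on these same values the counts are a description. Both exceptions were negative on a single array by a small margin. The first had log2 ratios of 0.914, 0.516, 0.81 and -0.042 on replicas 1 to 4, with an estimate of 0.55. The second had 2.341, 1.075, -0.005 and 2.749, with an estimate of 1.54.

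Narc8_24474 had the highest estimate among the called probes with 1 sign on all 4 arrays. Its log2 ratios were 3.471, 2.289, 2.928 and 3.31 on replicas 1 to 4, a mean of 3.00 ± 0.526 (SD, n = 4). Replica 2 was the lowest, and still showed a change well beyond the threshold. The standard error was 0.18, the 95% confidence interval ran from 2.60 to 3.39 and the adjusted *P* was 1.37e-07 (limma). In wild-type the same probe had log2 ratios of 3.356, 3.766, 3.551 and 4.193. Its ranges overlapped in the 2 genotypes, and the difference of -0.72 (*MINELESS* minus wild-type, 95% interval -1.25 to -0.18) did not pass adjustment over all probes (adjusted *P* = 0.238, limma).

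Narc8_22356 was next, with log2 ratios of 3.805, 2.181, 1.936 and 3.874, a mean of 2.95 ± 1.03 (SD, n = 4). Replicas 1 and 4 lay well above replicas 2 and 3. Its standard error was 0.28 and its adjusted *P* 4.33e-06 (limma). With robust empirical Bayes the adjusted *P* was 0.119 and the call was lost. The wild-type log2 ratios were 3.773, 2.03, 2.897 and 3.43, and the genotypes differed by -0.08 with a 95% interval from -1.03 to 0.86.

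Among the lower probes, Narc8_23365 stood apart. Its log2 ratios were -2.907, -2.846, -1.62 and -0.954, a mean of -2.08 ± 0.957 (SD, n = 4). The 95% confidence interval ran from -2.41 to -1.75 and the adjusted *P* was 5.12e-07 (limma). The fall was larger where challenged RNA carried Cy5, with a mean of -2.88 on replicas 1 and 2 against -1.29 on replicas 3 and 4. The dye effect of the probe was -0.79 (adjusted *P* = 0.316 and unadjusted *P* = 0.000159, limma). Since both dye orientations weighed equally, the estimate was -2.08 with and without the dye term. The probe had no wild-type value. Narc8_27519 was the next lowest, with log2 ratios of -1.125, -1.459, -1.369 and -1.788, a mean of -1.44 ± 0.274 (SD, n = 4) and an adjusted *P* of 1.00e-05 (limma). All 4 arrays lay beyond -1. In wild-type its log2 ratios were -1.517, -1.909, -2.13 and -1.633. The difference between genotypes was 0.36, with a 95% interval from -0.06 to 0.78.

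Below these, the ranking fell off slowly among increases and fast among decreases. The 12 highest probes with 1 sign on all 4 arrays had estimates from 2.13 to 3.00, with standard errors of 0.14 to 0.28. Of the 11 below the top, 9 had a 95% interval that overlapped that of the top probe, so the order among them is not resolved. The 12 lowest had estimates from -2.08 to -0.88, and 10 of them lay within 0.1 of each other. Agreement between replicas varied widely within both lists. In the 10th highest probe the log2 ratios were 1.473, 3.321, 3.093 and 2.088, whereas the 11th gave 2.344, 2.292, 1.874 and 2.381. In the 12th lowest they were -0.903, -0.962, -0.805 and -0.853, the narrowest spread of the 24 (SD 0.0673). In the 3rd highest probe the log2 ratios were 3.095, 3.108, 2.253 and 2.563, and in the 4th they were 2.444, 3.436, 2.363 and 2.691. The 7th and the 11th had no wild-type value. The 7th had log2 ratios of 2.927, 1.901, 2.986 and 2.506, so it exceeded 1.9 on each *MINELESS* array.

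Of the 12 highest probes 10 had at least 3 wild-type values, and the wild-type estimate was the larger in each of these 10. In the 3rd the wild-type log2 ratios were 2.415, 2.806, 2.435 and 3.743, and in the 4th they were 2.357, 2.599, 2.8 and 3.983. In both, wild-type replica 4 stood well above the others, so the larger wild-type estimate rested in part on that array. It was not the highest wild-type replica in the 2nd, the 8th and the 12th. The differences (*MINELESS* minus wild-type) ran from -1.34 to -0.08 and none was called. The widest was in the 8th highest probe, with log2 ratios of 2.381, 1.356, 2.515 and 3.748 in *MINELESS* and of 3.404, 3.872 and 3.825 on wild-type replicas 1, 2 and 4. *MINELESS* replica 4 lay within the wild-type range and the other *MINELESS* replicas lay below it. The adjusted *P* of this difference was 0.0837 (limma). Of the 12 lowest probes 9 had at least 3 wild-type values, with differences from -0.58 to 0.41, and the wild-type estimate was the lower in 6 of the 9. None was called. In the 6th lowest the log2 ratios were -1.182, -1.465, -0.777 and -0.316 in *MINELESS* and -0.032, -0.203, -1.02 and -0.159 in wild-type, and the ranges overlapped. The 1st, the 5th and the 7th lowest had no wild-type value. In the 5th the replicas were close together, at -1.019, -0.977, -0.787 and -1.028.

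The ranking left out 4 called higher probes with values on 3 arrays that had estimates between 2.15 and 2.83, and 5 such lower probes between -1.35 and -0.89.

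**Figure D2:**
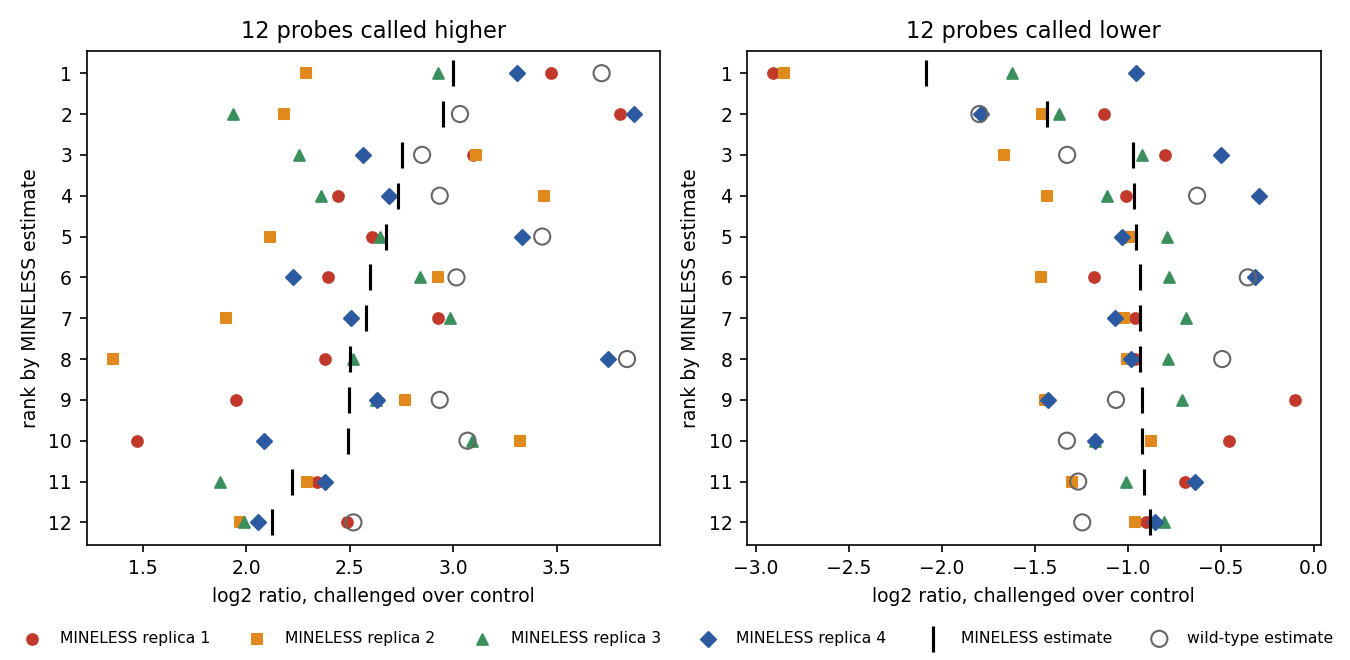
Log2 ratios (challenged over control, x axis) of the 12 highest and 12 lowest called probes with 1 sign on all 4 *MINELESS* arrays, ordered by rank (y axis), with each replica as a coloured symbol, the *MINELESS* estimate as a bar and the wild-type estimate as an open circle where wild-type had at least 3 values. Higher probes lie between 2.13 and 3.00 by estimate, and lower probes other than the first 2 lie close to -0.9.

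The response was also read on an array whose log2 ratios had no part in calling the probes. Probes were called on the other 3 *MINELESS* arrays and read on the fourth. A value on the left-out array still counted towards the 3 required for testing. Some probes therefore had an empty cell among the other 3 arrays. Of the probes called higher without replica 1, 134 of 137 were positive on it (97.8%), and 80.3% were beyond 0.5. On replica 2 the same held for 101 of 102 (99.0%) and 93.1%. On replica 3 these figures were 127 of 137 (92.7%) and 77.4%, and on replica 4 they were 145 of 151 (96.0%) and 71.5%. Over all probes, 47.3% to 51.8% were positive on a given array and 11.3% to 14.5% were above 0.5. Median log2 ratios on the left-out array were 0.93, 1.24, 0.94 and 0.94 for replicas 1 to 4, beside 1.08, 1.29, 1.06 and 0.97 on the arrays that chose the probes.

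Decreases were smaller on the left-out array than on the others for 3 of the 4 replicas. On replica 1, 41 of 46 probes called lower on the other arrays were negative (89.1%) and 45.7% were beyond -0.5, with a median of -0.45 beside -0.80 on the arrays that chose them. On replica 2 there were 20 of 21 (95.2%) and 81.0% beyond -0.5, with medians of -0.96 and -0.91. On replica 3 there were 40 of 45 (88.9%) and 48.9% beyond -0.5, with medians of -0.48 and -0.67. Replica 4 was the weakest, with 45 of 63 negative (71.4%), 34.9% beyond -0.5 and a median of -0.32 beside -0.66. Over all probes, 47.9% to 52.6% were negative on a given array and 5.06% to 11.3% were below -0.5. Left-out shares are descriptions without a test, and the 4 sets of probes overlap.

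**Figure D3:**
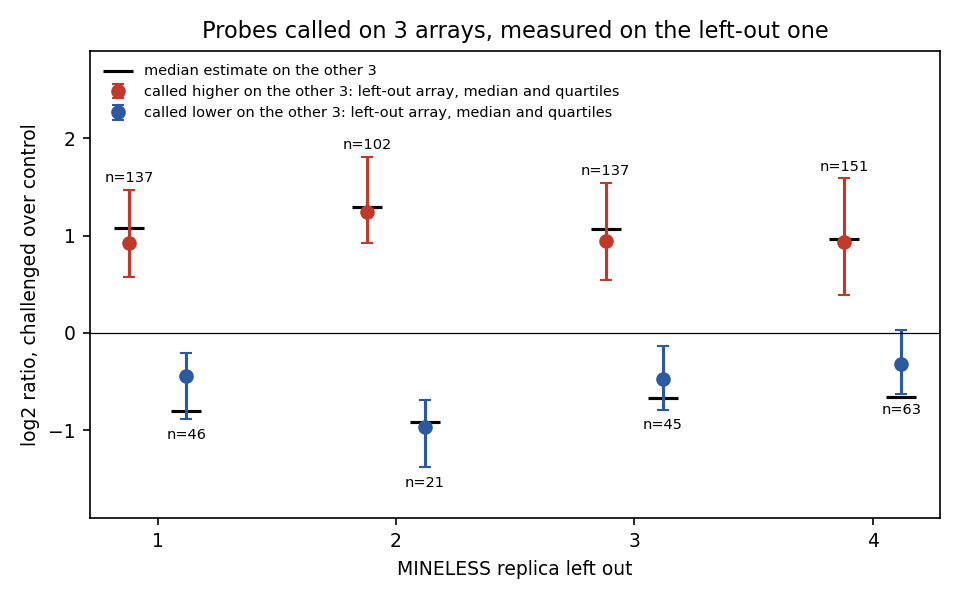
Median log2 ratio (challenged over control) of probes called with 1 *MINELESS* array left out, on the other arrays and on the array left out, for each replica and each direction. Higher probes have medians from 0.93 to 1.24 on the array left out, and lower probes from -0.96 on replica 2 to -0.32 on replica 4.

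The called probes with 4 values were compared between the arrays with many values and those with few. Among the 117 called higher probes with 4 values, the median was 1.10 on replicas 1 and 4 and 1.04 on replicas 2 and 3, and 96 probes exceeded 0.5 on both pairs. Among the 37 called lower probes with 4 values it was -0.60 and -0.77, and 20 were beyond -0.5 on both pairs. The fall was the smaller on replicas 1 and 4 for 27 of the 37 lower probes. This pairing of the arrays was chosen after their coverage was seen. The share called was 12.5% of the 1231 complete probes, 9.45% of the 381 that lacked replica 3 and 4.79% of the 292 that lacked replica 2. Of the 47 probes that lacked replica 4, 8.51% were called, and of the 38 that lacked replica 1, 13.2%.

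Some of the *MINELESS* response lay in probes without any wild-type value. These were 221 of the 1989 probes, of which 20 were called higher and 6 lower, together 11.8%, beside 10.4% of the 1747 probes with 3 or 4 wild-type values. The 20 higher probes had estimates from 0.54 to 2.69 with a median of 0.98, and the 6 lower ones from -2.08 to -0.60 with a median of -0.91. An empty wild-type cell is not a measured absence of response. The remaining 21 probes had 2 wild-type values, and 5 of them were called in *MINELESS*.

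Probes that were higher in *MINELESS* were for the most part also higher in wild-type. Of the 166, 142 had at least 3 wild-type values. In a joint fit of the 8 arrays, 139 of these were positive in wild-type and 127 were called higher there, beside 11.8% of all 1747 probes in that fit. The medians were 1.00 in *MINELESS* and 1.27 in wild-type, with a median difference of -0.25, and the estimate was larger in wild-type for 106 of the 142. After scaling of all arrays to 1 common spread the median difference was -0.14, and wild-type was the larger for 90. Since these probes were chosen by their *MINELESS* values, the medians of the 2 genotypes are a description. The paper proposes that weaker induction in *MINELESS* could come from less feeding, which was not tested here. Of the 47 lower probes 40 had at least 3 wild-type values, 39 of them were negative there and 25 were called lower (6.98% of all 1747 probes). The medians were -0.66 in *MINELESS* and -0.62 in wild-type.

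**Figure D4:**
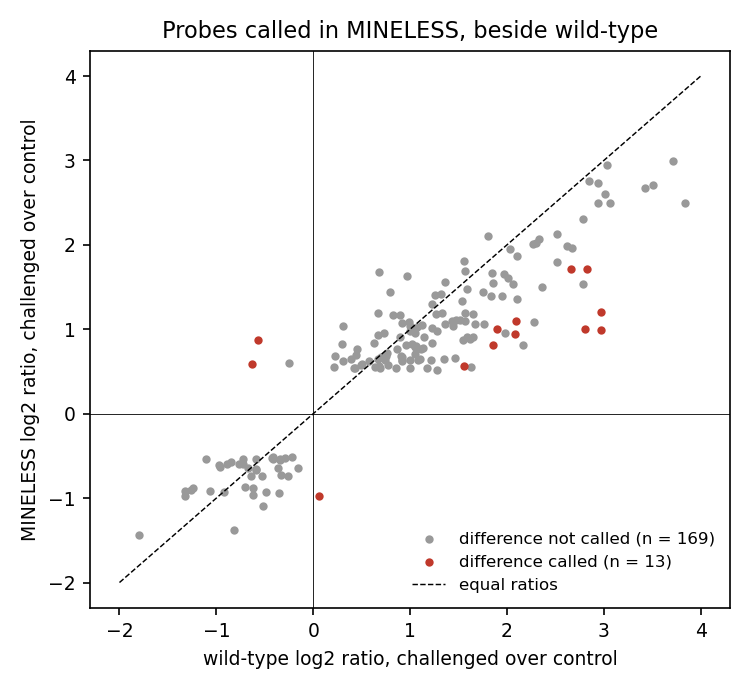
Log2 ratio (challenged over control) in *MINELESS* against that in wild-type for called *MINELESS* probes with at least 3 values in each genotype, with the 13 probes whose difference was called marked. Of the 142 higher probes 106 have the larger estimate in wild-type.

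The difference between genotypes was called for 13 of the 182 probes, at an adjusted *P* of 0.05 and a difference beyond 0.4, and for 18 of all 1747 probes (1.03%). In 10 of the 13 the increase was smaller in *MINELESS*, with estimates of 0.57 to 1.72 beside 1.56 to 2.98 in wild-type. This balance depended on the scaling of the arrays. Over all 1747 probes, the *MINELESS* ratio was the lower in 11 of the 18 called differences with the arrays as deposited, and in 5 of 15 after such scaling (11 calls were shared). Of the 10 probes, 3 were still called after scaling, and all 10 kept the sign of the difference, which then ran from -1.82 to -0.75. As deposited, their values did not overlap between genotypes, which held for 149 of the 1747 probes (8.53%). The same values chose the 10 probes, so their lack of overlap is a description. In the probe with the largest difference the *MINELESS* log2 ratios were 0.665, 0.547, 0.567 and 2.196, and the wild-type ones were 2.806, 3.072, 3.059 and 2.936. The wild-type replicas lay close together, and *MINELESS* replica 4 stood well above the other *MINELESS* replicas. The difference was -1.97 with a standard error of 0.29 (adjusted *P* = 0.00543, limma). In another of the 10 the *MINELESS* log2 ratios were 1.04, 0.95 and 0.884 on replicas 1, 3 and 4, and the wild-type ones 2.001, 1.931, 2.147 and 2.24, a difference of -1.14 (adjusted *P* = 0.0182, limma).

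In the other 3 probes the change in *MINELESS* was not a smaller increase. One fell, with log2 ratios of -0.732, -0.907 and -1.091 on replicas 1, 2 and 4 beside 0.677, -0.12, -0.182 and -0.138 in wild-type, a difference of -1.03. Its wild-type values lay on both sides of 0. The remaining 2 rose in *MINELESS*, with estimates of 0.59 and 0.88, where wild-type had estimates of -0.63 and -0.57, of opposite sign. In the second of these, wild-type replica 4 had -1.821 and the other wild-type replicas lay between -0.473 and 0.077. The calls of a difference depended on single arrays. Of the 13, 0 remained when either wild-type replica 2 or *MINELESS* replica 3 was left out, 1 without *MINELESS* replica 1 and 3 without wild-type replica 1 or *MINELESS* replica 4. Without *MINELESS* replica 2 there were 5, and 12 and 13 remained without wild-type replicas 3 and 4. The sign of the difference was kept by all 13 in each of these 8 fits. Each fit kept most of the arrays that chose the 13, so this is a description.

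The number of probes called in *MINELESS* depended on replica 2 and on the size of change required. Without replica 2, 137 of 1951 probes tested passed, 115 higher and 22 lower, so that 83.9% of calls were higher beside 77.9% with all arrays. Without replicas 1, 3 and 4 in turn the counts were 188 of 1697, 224 of 1942 and 221 of 1608 probes tested. With a log2 ratio beyond 1, 89 probes passed and 95.5% were higher. With values on at least 2 arrays, 374 of 4791 probes passed, 313 higher and 61 lower, of which 200 were among the 213. Each of the 2802 probes with exactly 2 values had them in opposite dye orientations. With the dye term no residual was left for these probes, so their variances came wholly from the other probes.

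**Figure D5:**
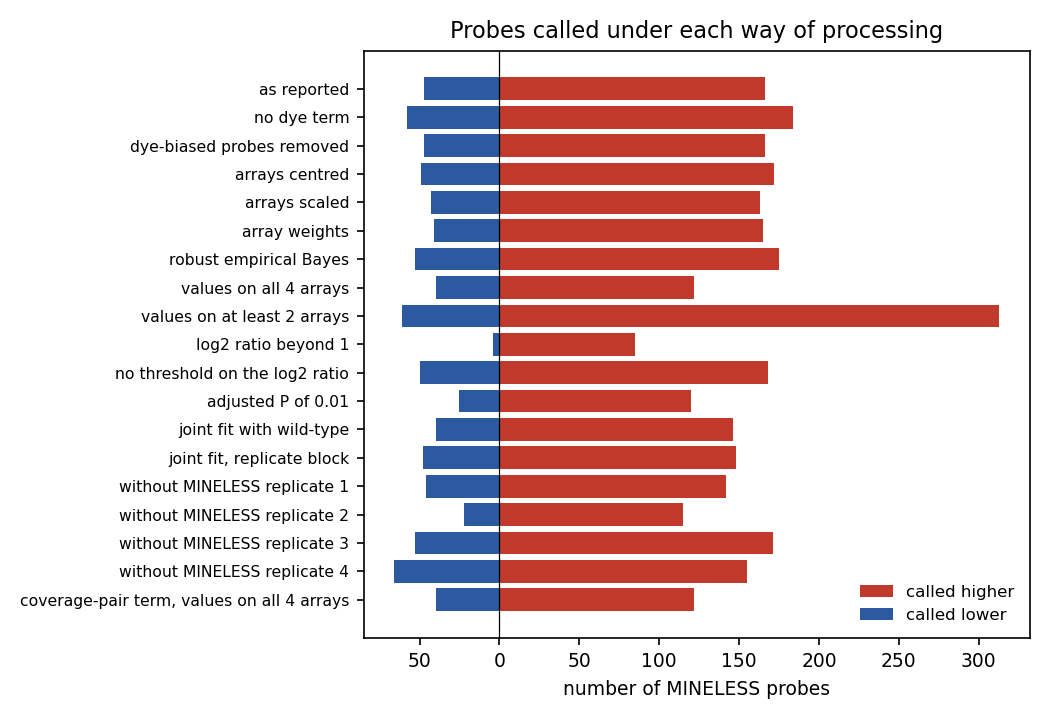
Number of probes called higher and lower in *MINELESS* under each way of processing the log2 ratios. The count was 213 as reported, 137 without replica 2, 89 with a log2 ratio beyond 1 and 374 with values on at least 2 arrays. Probes with only 2 values had no residual spread of their own in that last fit.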

How the data were processed

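Two-colour oligonucleotide arrays from *Arabidopsis* were hybridized with RNA from challenged and control *B. napus* seedlings, 4 for each genotype. The deposited log2 ratios had been normalized within arrays by the authors with print tip-loess in R 2.10.1 and limma, without background subtraction, averaged over replicate spots, and freed of genes with strong dye bias. No source used here gives the rule for empty cells.

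The *MINELESS* log2 ratios were modelled in R 4.3.3 with limma 3.58.1 by an intercept and a dye effect for each probe, tested two-sided with moderated variances (11.6 prior degrees of freedom), with Benjamini-Hochberg adjustment over 1989 probes. Differences between genotypes were tested in a joint fit of 8 arrays over 1747 probes with at least 3 values in each. Thresholds (adjusted *P* 0.05, log2 ratio 0.5, difference 0.4) were those of the study's methods. On simulated data for 1989 probes, 200 of them changed, the *MINELESS* fit recovered 82% at a log2 ratio of 0.75 and 100% at 1.5, with 3.19% of calls false. For the difference (1747 probes) these were 52%, 98% and 2.60%. The simulated noise was independent and normal, with variances taken from the fit and no dye effects or outlying arrays. These shares therefore describe the fits under their own assumptions.

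Members and lists were chosen with earlier results of these data known. Named were the 2 highest and 2 lowest called probes with 1 sign on all 4 *MINELESS* arrays, and the 12 highest and lowest were given by rank. Other probes were chosen after their values were seen. Lists of jasmonate, tryptophan, glucosinolate and other genes could not be applied for lack of a table that links probes to genes, and no probe sequences were printed. Scanner files were not used here. Alternatives were the dye term, removal of dye-biased probes, centring, scaling, array weights, robust moderation, coverage, thresholds, the joint fit, a replicate block and each array left out. A term for coverage and means within pairs of arrays were added after seeing the data.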

Additional observations from a re-analysis of the deposited data

Results flagged for a closer look

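In the 12th highest *MINELESS* probe, replica 1 stood apart with a log2 ratio of 2.486, while the other replicas lay between 1.972 and 2.056 (Dixon ratio 0.837, above the 95% critical value for 4 values). It was the only such case among 26 groups of 4 values examined, and chance marks about 1 in 20.

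For 13 probes called in *MINELESS* the response differed from wild-type by a test of the difference itself (limma, adjusted *P* of 0.05 and a difference beyond 0.4). The increase was smaller in *MINELESS* in 10 of them, 2 rose and 1 fell in *MINELESS* with little or opposite change in wild-type, and leaving out single arrays left between 0 and 13 of these calls.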

How the results depend on the processing

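The count of 213 probes moved to 374 with values on at least 2 arrays and to 89 with a log2 ratio beyond 1, and ran from 137 to 224 with single arrays left out. In the count of 374, probes with only 2 values had no variance estimate of their own. With an array left out, 1608 to 1951 probes were tested. The other settings gave 145 (adjusted *P* of 0.01) to 242 (no dye term), with 162 for probes with all 4 values and also 162 with the coverage term added after seeing the data. That term is balanced over the 4 arrays and cannot change an estimate, so the equal counts are not a test of coverage. Lower probes fell from 47 to 25 at an adjusted *P* of 0.01. The 18 differences between genotypes became 49 with a replicate block and 0 to 43 with single arrays left out. Where the count was 0, 147 and 139 probes had an unadjusted *P* under 0.05 (without wild-type replica 2 and *MINELESS* replica 3, limma). Scaling the arrays gave 15 differences and moved the share with the higher *MINELESS* ratio from 38.9% to 66.7%. The replicate block gave 196 *MINELESS* calls. Deviations of the log2 ratios, not the ratios themselves, were compared between same-numbered arrays of the 2 genotypes across 1056 probes. These deviations correlated at 0.245, 0.0437, -0.109 and 0.0322 for replicas 1 to 4. The main fit of the difference treated the arrays as unpaired, and whether they were paired was not tested. On left-out arrays, a log2 ratio beyond 1 moved the medians of higher probes to 1.40, 1.41, 1.42 and 1.53 on replicas 1 to 4, and those of lower probes to -0.80, -1.38 and -0.64 on replicas 1, 2 and 4. Without the dye term the median of higher probes on replica 2 was 1.05. Of 70 values of the 4 named probes under the alternatives, 69 kept call and sign, and Narc8_22356 lost its call with robust empirical Bayes (adjusted *P* = 0.119). The changed thresholds, and the removal of dye-biased probes, which removed none, repeated the values of the main fit. The estimates were also identical without the dye term, and with array weights, robust moderation, other coverage, the joint fit, the replicate block and the coverage term. Only centring, scaling and leaving out an array moved them, so elsewhere the sign could not change. The 4 probes were also chosen for extreme values in these data, so the count is a description. The causes were not tested.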

Other observations

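Probes with values had them in both dye orientations. Of the 4791 probes with any *MINELESS* value, 0 had a value on 1 array only, and 0 had values solely where challenged RNA was in Cy5 or solely where it was in Cy3. Among the 7447 probes with any wild-type value the same counts were also 0. Of the 2802 *MINELESS* probes with exactly 2 values, 2699 (96.3%) had them on replicas 1 and 4. The *MINELESS* dye effect reached an unadjusted *P* under 0.05 for 10 of the 1989 probes (0.503%) and an adjusted one for 0 (limma). The authors had removed genes with strong dye bias before deposit.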
